A study of Mus musculus with 2 samples.

Results

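The miRNA genes described here are the 10 that lie on the plus strand of mouse chromosome 12 opposite the imprinted gene Rtl1 and just beyond its 3′ end: Mir337, Mir540, Mir665, Mir3070a, Mir3070b, Mir431, Mir433, Mir127, Mir434 and Mir136. They were chosen by name and position (mm10, GENCODE M21), by a rule that uses no measured values, and make up 10 of the 2202 miRNA genes counted. Small RNA reads were counted in the hippocampus of male B6CASTF1/J mice, a hybrid of the strains CAST/EiJ and C57BL/6J, at an age of 14 days. The series held this 1 untreated group, with 2 libraries labelled as separate biological replicates, each with 3 males, numbered differently, in its label and the tissue given as a layer of hippocampus. Both labels nevertheless carry 1 donor identifier, and how tissue was pooled is not given in the sources used here, so the spread between the libraries may be in part technical. With 1 group of whole tissue, more cells of a type and more RNA per cell cannot be told apart. Reads were not split by allele in the tables, and the parental origin of the miRNAs was not analysed here.

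The Dlk1-Dio3 domain is imprinted: its non-coding RNAs, among them Meg3, Rian and many miRNAs, are made from the chromosome inherited from the mother, and its protein-coding genes Dlk1, Rtl1 and Dio3 mainly from the chromosome inherited from the father. Rtl1 is a gene derived from a retrotransposon and is needed for the fetal vessels of the placenta in mice. The maternal transcript that runs against it carries miRNA hairpins whose products match the Rtl1 mRNA base for base, and in mouse embryos such miRNAs are known to guide cleavage of that mRNA. Mature miRNAs act through the seed, bases 2 to 8 from the 5′ end, which pairs with target mRNAs. A miRNA gene stands for a hairpin, from which 2 arms, named 5p and 3p, can be cut.

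The mature arms of the genes that carried most of the reads, and of those with a repeat or a partner that bears on the counts, are shown 5′ to 3′ as RNA, with the seed in capitals (RefSeq, GRCm38.p6). The tables count reads per hairpin, so the share of each arm cannot be read from them.
miR-127-5p: cUGAAGCUcagagggcucugau
miR-127-3p: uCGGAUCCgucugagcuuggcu
miR-433-5p: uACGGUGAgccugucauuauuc
miR-433-3p: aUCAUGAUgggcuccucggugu
miR-431-5p: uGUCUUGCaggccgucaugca
miR-431-3p: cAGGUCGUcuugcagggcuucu
miR-434-5p: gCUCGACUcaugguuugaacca
miR-434-3p: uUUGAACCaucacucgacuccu
miR-136-5p: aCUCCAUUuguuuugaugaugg
miR-3070-5p: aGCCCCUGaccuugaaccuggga
miR-3070-3p: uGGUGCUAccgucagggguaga
miR-3070-2-3p: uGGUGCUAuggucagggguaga

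RefSeq lists 20 arms for the 10 genes under 19 names, with 18 seeds among them. The seed GGUGCUA is held by both miR-3070-3p and miR-3070-2-3p, which differ by C9U and C10G (miR-3070-3p first, positions from the 5′ end). The 5p arm has the same sequence in Mir3070a and Mir3070b, and the hairpins differ at 5 of 89 positions. No other seed was shared between genes of the stretch. Outside it, among the 1679 mature names in the RefSeq table, the seed of miR-540-3p was also that of miR-6915-5p, and no other arm of the 10 genes shared its seed. Inside single hairpins there were direct repeats: the arms of miR-431 have the stretch GUCUUGCAGG in common and those of miR-434 the stretch UUUGAACCA, 10 and 9 nucleotides, against 3 to 6 in the other 8 genes.

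By position the 10 genes fell into 2 sets of 5. Rtl1 (minus strand, chr12:109589193-109600330) has its coding sequence, 5235 bases with the stop codon, from 109590169 to 109595403. The hairpins of Mir431, Mir433, Mir127, Mir434 and Mir136 lie wholly opposite that coding sequence, and all 10 of their arms have their exact complement once in the Rtl1 transcript. Mir337, Mir540, Mir665, Mir3070a and Mir3070b lie from 512 to 3307 bases beyond the annotated 3′ end of Rtl1 in GENCODE, and none of their arms has a full complement in its transcript. By overlap with Rtl1 as annotated, 5 of the 10 genes are thus antisense to it. The sites opposite Mir127, at codons 832 to 839, and opposite Mir136, at codons 18 to 25, show the match, given as DNA of the Rtl1 strand with the complement of the seed in capitals.
Rtl1 opposite miR-127-3p: agccaagctcagacGGATCCGa
Rtl1 opposite miR-136-5p: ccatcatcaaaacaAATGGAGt

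Along the chromosome the hairpins covered 9600 bases. Mir337 (chr12:109585789-109585885), Mir540 (chr12:109586080-109586146) and Mir665 (chr12:109586314-109586407) stood close together, with gaps of 194 and 167 bases. Mir3070a (chr12:109587943-109588031) and Mir3070b (chr12:109588592-109588680) were 560 bases apart. The genes opposite the Rtl1 coding sequence were Mir431 (chr12:109590447-109590537), Mir433 (chr12:109591715-109591838), Mir127 (chr12:109592846-109592915), Mir434 (chr12:109594506-109594599) and Mir136 (chr12:109595327-109595388), with gaps of 727 to 1590 bases between neighbours. Hairpins were 62 to 124 nucleotides long, with a GC share from 40.3% for Mir136 to 61.2% for Mir540. Their predicted folding energy at 37 °C ran from -49.4 kcal/mol for Mir337 to -28.2 kcal/mol for Mir136, and the median per nucleotide was -0.46 kcal/mol, against -0.43 kcal/mol over the 426 miRNA genes detected in these libraries.

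**Figure D1:**
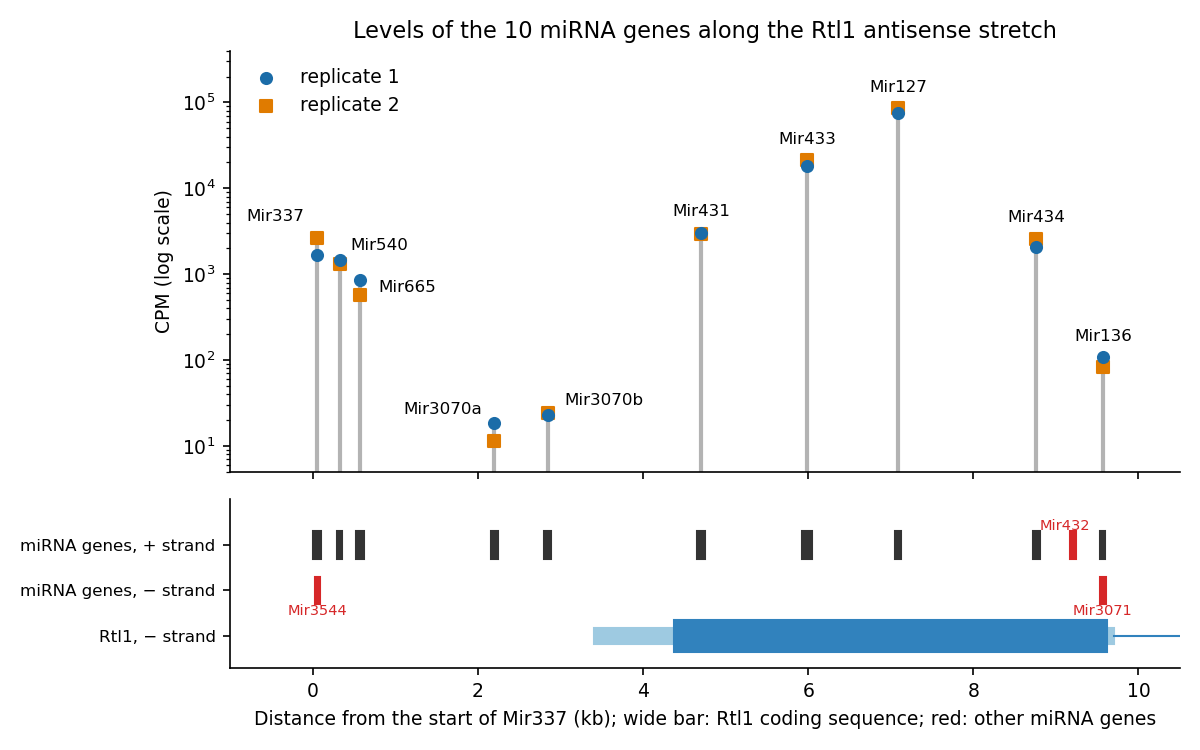
Level in CPM (counts per 1000000 assigned counts, log axis) of the 10 miRNA genes in replicate 1 (circles) and replicate 2 (squares), with grey stems to the mean, against the distance in kb from the start of Mir337; the lower panel shows the hairpins, the Rtl1 exon with its coding part as the wide bar, and 3 other miRNA genes in red. Mir127 and Mir433 stand highest, at means of 80675 and 19842 CPM, and Mir3070a and Mir3070b, in the gap before Rtl1, lowest.

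The 10 genes together had 393858 counts in replicate 1, 10.4% of all counts on miRNA genes (95% Wilson interval 10.35 to 10.41), and 298067 counts in replicate 2, 11.7% (11.63 to 11.71), with a mean of 11.0% ± 0.908 (SD, n = 2). Such intervals take in the counting error of reads alone. PCR copies cannot be told from separate molecules, since no molecular identifiers are named in the labels. For molecules the intervals may thus be too narrow. Of all reads of the libraries, assigned or not, the genes held 2.86% in replicate 1 and 4.12% in replicate 2. All 10 genes reached the detection level of 2 CPM (counts per 1000000 counts on miRNA genes) in both libraries, against 19.3% of all miRNA genes, and the lowest single value was 11.4 CPM. Their median mean level was 1777 CPM, against 88.3 CPM over the 426 genes detected.

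Mir127, which is needed for a normal placental labyrinth in mice, had 288929 counts in replicate 1 and 217670 in replicate 2. These were 76155 and 85194 CPM, a mean of 80675 ± 6391 CPM (SD, n = 2). Mir127 ranked 2 among all miRNA genes in replicate 1 and 3 in replicate 2. Multimapping reads, 26.3% and 37.5% of all reads in replicates 1 and 2, were given to no gene. The rank, like the share of the 10 genes, thus holds among assigned counts, where miRNAs with several gene copies can be undercounted. Of the counts of the 10 genes Mir127 made up 73.4% in replicate 1, with Wilson bounds of 73.2 and 73.5, and 73.0% in replicate 2, with bounds of 72.9 and 73.2. Its share of the stretch thus differed by less than 1 percentage point between libraries. Mir433 had 69879 counts, or 18419 CPM, in replicate 1 and 54333 counts, or 21265 CPM, in replicate 2, and made up 17.7% and 18.2% of the stretch. With Mir127 it accounted for 91.1% in replicate 1 and 91.3% in replicate 2, leaving 8.90% and 8.74% to the other 8 genes. Without Mir127, the stretch held 2.77% of the reads on miRNA genes in replicate 1 and 3.15% in replicate 2.

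Next came Mir431, whose product promotes the regrowth of axons of sensory neurons in mice. It had 11468 counts (3023 CPM) in replicate 1 and 7533 counts (2948 CPM) in replicate 2, and was the gene of the stretch with the smallest relative spread, an SD of 1.76% of its mean. Mir434 had 7813 counts (2059 CPM) and 6649 counts (2602 CPM) in replicates 1 and 2, so that replicate 2 was the higher library. Mir337 had 6393 counts (1685 CPM) in replicate 1 and 6772 counts (2650 CPM) in replicate 2, and again replicate 2 was higher. The ranges of Mir434 and Mir337 overlapped.

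Mir540 had 5530 counts (1458 CPM) in replicate 1 and 3364 counts (1317 CPM) in replicate 2, a mean of 1387 ± 99.7 CPM (SD, n = 2). Mir665 had 3278 counts (864 CPM) and 1445 counts (566 CPM) in replicates 1 and 2. For both genes replicate 1 was the higher library, by 1.11-fold for Mir540 and by 1.53-fold for Mir665. Mir337, the close neighbour of both, was higher in replicate 2 instead.

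Mir136, Mir3070b and Mir3070a stood lowest in both libraries. Mir136, whose hairpin lies opposite the first codons of Rtl1, had 409 counts (108 CPM) in replicate 1 and 210 counts (82.2 CPM) in replicate 2. Mir127, on the same strand, had 706 times as many counts in replicate 1 and 1037 times as many in replicate 2. Mir3070b had 88 counts (23.2 CPM) and 62 counts (24.3 CPM), and Mir3070a had 71 counts (18.7 CPM) and 29 counts (11.4 CPM), in replicates 1 and 2. The hairpins of Mir3070a and Mir3070b have a run of 43 bases in common, which takes in the whole 5p arm, and reads that mapped to several places were given to no gene. A read of miR-3070-5p matches both genes in full, so their levels are uncertain. None of the other 8 genes shares a stretch of 20 nucleotides with a miRNA gene elsewhere.

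By mean level the order was Mir127, Mir433, Mir431, Mir434, Mir337, Mir540, Mir665, Mir136, Mir3070b and Mir3070a. Of the 9 pairs of neighbours in this order, Mir434 and Mir337 was the pair whose values in the 2 libraries overlapped. The ratio of means between neighbours was largest for Mir665 over Mir136, 7.52-fold, and Mir433 over Mir431, 6.65-fold. The highest gene stood 5367-fold above the lowest, 12.39 on the log2 scale, while the hairpins lie on 1 strand within 9600 bases. Levels were not divided by hairpin length, since small RNA libraries sequence the mature arms, and the efficiency with which each arm enters a library was not measured. With 2 libraries, a two-sided exact permutation test between genes cannot give a p below 0.333, even with the pairing by library ignored. None was therefore run. The 5 genes opposite the Rtl1 coding sequence held 96.1% of the counts of the stretch in both libraries, and the 5 beyond Rtl1 held 3.90% and 3.92% in replicates 1 and 2.

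**Figure D2:**
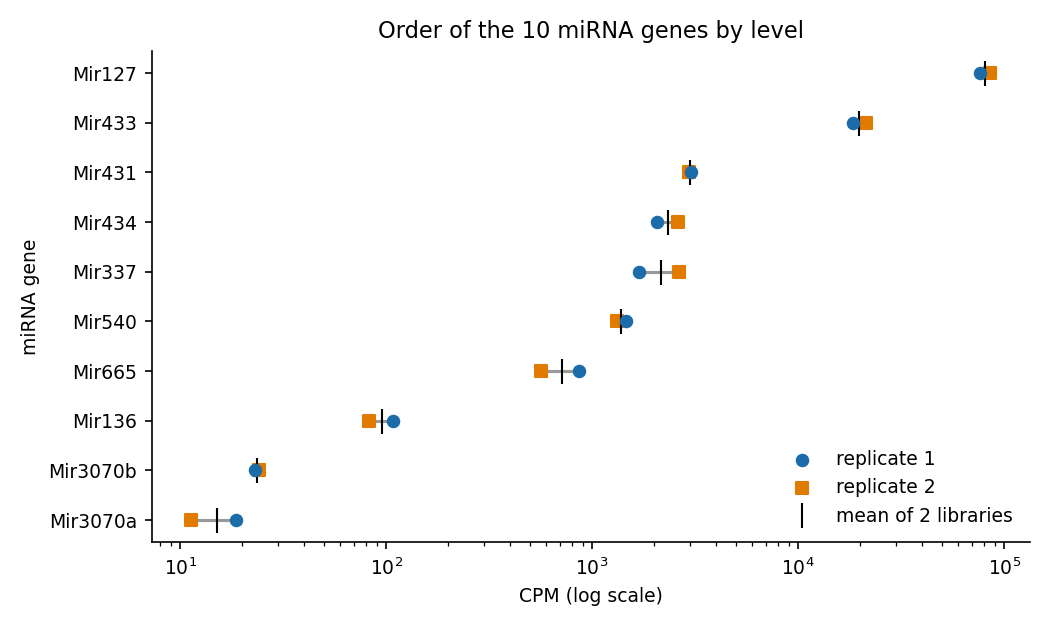
Level of each of the 10 miRNA genes in CPM (log axis), ordered by the mean of the 2 libraries (vertical tick), with replicate 1 as circles and replicate 2 as squares. Mir127, Mir433, Mir665 and Mir136 stand 4.00-fold or more above the next gene in mean level, the other 5 steps are 1.94-fold or less, and the values of Mir434 and Mir337 overlap.

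Mir337 and Mir136 each overlap a miRNA gene on the minus strand, the strand of Rtl1. Mir3544 lies within the hairpin of Mir337 over 61 bases, and Mir3071 covers all 62 bases of Mir136. Opposite Mir337, Mir3544 had 2 counts on its own strand in replicate 1 and 0 in replicate 2. Opposite Mir136, Mir3071 had 0 in both, where 3 counts, the limit that a count of 0 allows, correspond to 0.791 CPM in replicate 1 and 1.17 CPM in replicate 2. Reads at both loci were thus on the plus strand, save those 2. In the count column that ignores strand, Mir337 and Mir136 had 0 counts in both libraries, while the other 8 genes had the same counts as in the stranded column. This is what a count gives that assigns a read over overlapping genes to none of them. Over all genes, the ambiguous reads of that column were 217782 in replicate 1 (1.58% of all reads) and 153023 in replicate 2 (2.11%). Mir337 had 6393 and 6772 stranded counts and Mir136 had 409 and 210, so most ambiguous reads lay elsewhere. The arms on both strands overlap in 4 pairs: miR-136-5p and miR-3071-3p by 20 bases, miR-136-3p and miR-3071-5p by 19, miR-337-3p and miR-3544-5p by 21, and miR-337-5p and miR-3544-3p by 17. For the longer overlap at each locus the arms not yet shown are given.
miR-3071-3p: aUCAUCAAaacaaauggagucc
miR-337-3p: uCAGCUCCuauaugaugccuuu
miR-3544-5p: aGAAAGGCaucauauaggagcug

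A further miRNA gene, Mir432 (chr12:109594956-109595030), lies on the plus strand between Mir434 and Mir136. It is not among the 10 and had 0 counts in both libraries, which allows the same 0.791 and 1.17 CPM as above. Its neighbours Mir434 and Mir136 were at 2059 and 108 CPM in replicate 1 and at 2602 and 82.2 CPM in replicate 2. No run of 20 bases of its hairpin recurs in another miRNA gene.

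The libraries were then compared with each other, gene by gene, by a two-sided exact binomial test given their totals. The test covers counting error only and compares 2 libraries, not conditions. Of the 10 genes 8 differed at an adjusted p under 0.05, 4 with more in replicate 1 and 4 with more in replicate 2. Among all 507 genes tested 52.1% differed, 25.2% upward in replicate 1 and 26.8% upward in replicate 2. The test finds smaller differences at higher counts, and the shares were not matched for level. The median mean level was 1777 CPM for the 10 genes and 88.3 CPM over all detected genes. The genes higher in replicate 1 were Mir540, Mir665, Mir3070a and Mir136, and those higher in replicate 2 were Mir337, Mir434, Mir433 and Mir127. Mir3070a passed by little, with an adjusted p of 0.0475 in the exact binomial test, and Mir3070b (adjusted p = 0.864) and Mir431 (adjusted p = 0.151) did not pass that exact test. The call for Mir3070a was lost with no minimum count (adjusted p = 0.0711 by the exact test), and Mir431 passed with totals scaled by edgeR's TMM factors (adjusted p = 0.00266 by the exact test).

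The log2 ratio of replicate 1 over replicate 2 ran from -0.65 for Mir337 to 0.70 for Mir3070a, with a median of -0.01, against 0.00 over the 328 genes that averaged at least 10 CPM. The median size of the ratio, without its sign, was 0.27 for the 10 genes and 0.42 for the 328. None of the 10 was over 2-fold apart between libraries, against 14.3% of the 328. For 10 genes a count of 0 is not far from that share. The 328 include genes of lower level, where counting error widens the ratios, and were not matched to the 10. When the spread between libraries was modelled, with edgeR's exact test and a common dispersion estimated from the same 2 libraries, 0 of the 10 genes were called, and 0 had an unadjusted p under 0.05. That edgeR test called 0.394% of all genes; its dispersion holds the very differences it tests, so the count of 0 says little about their size.

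**Figure D3:**
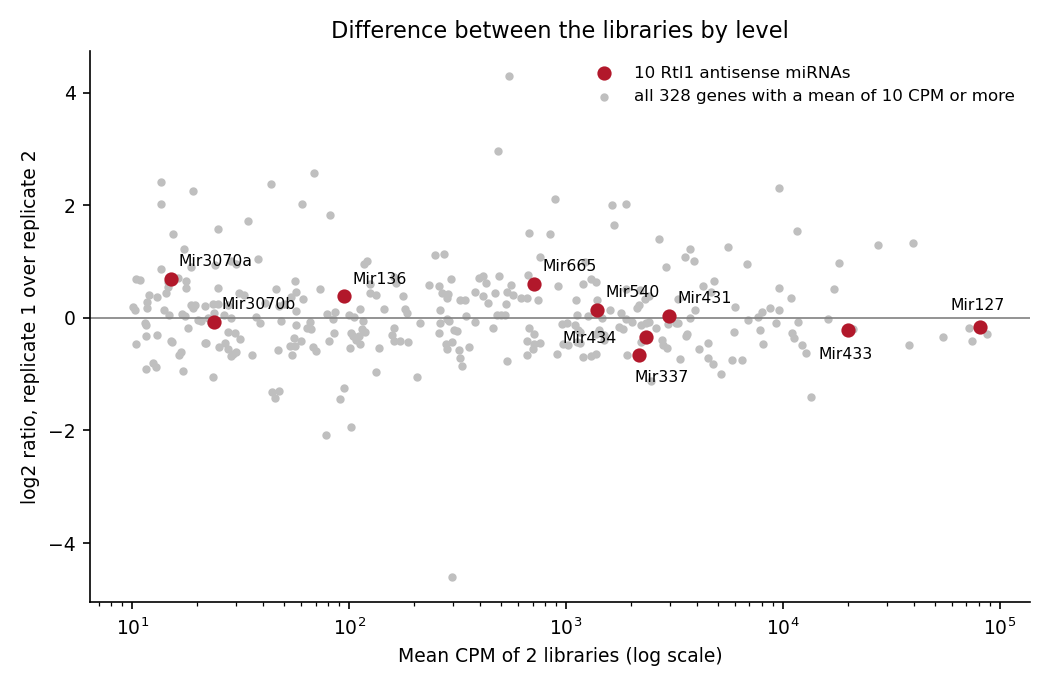
The log2 ratio of CPM in replicate 1 over replicate 2 against mean CPM (log axis), for the 10 miRNA genes (large red points) and all 328 genes averaging at least 10 CPM (small grey points). The 10 genes lie between -0.65 and 0.70, and none is over 2-fold apart.

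The Rtl1 antisense stretch was set beside the miRNA genes of the domain's plus strand that lie before or after it. There were 9 in the Meg3 and Rian stretches, on either side of it, and 39 in the miR-379 to miR-410 cluster further on. All 10 genes of the Rtl1 antisense stretch were detected, against 6 of 9 in the Meg3 and Rian stretches and 36 of 39 in the cluster. The sets were not made alike, so these counts of detected genes are not a like comparison. The neighbouring sets take in every annotated plus-strand miRNA gene of their stretches, while Mir432, with 0 counts in both libraries, is not among the 10. The Rtl1 antisense genes held 10.4% and 11.7% of the reads on miRNA genes in replicates 1 and 2. The Meg3 and Rian stretches held 6.66% and 3.51%, and the cluster held 11.3% and 8.94%. The Rtl1 antisense genes were higher in share than the cluster in replicate 2 and lower in replicate 1, so their order was not the same in both libraries. That change of order rests on Mir487b, with 34.8% of the cluster's counts in replicate 1 and 17.8% in replicate 2. Without Mir487b the cluster was lower in both libraries. The Rtl1 antisense share rests likewise on its leading gene: without Mir127 it was 2.77% and 3.15% in replicates 1 and 2. Within the domain they took 36.7% of the counts in replicate 1 and 48.4% in replicate 2.

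The median mean level of detected genes was 1777 CPM in the Rtl1 antisense stretch, 1444 CPM in the Meg3 and Rian stretches and 636 CPM in the cluster. Mir127 made up 73.4% and 73.0% of the Rtl1 antisense counts in replicates 1 and 2. Mir770, the leading gene of the Meg3 and Rian stretches, made up 85.0% and 64.4% of the counts there, with 56616 CPM in replicate 1 and 22615 CPM in replicate 2. Mir370 and Mir341 followed at 8039 ± 1804 and 2215 ± 457 CPM (SD, n = 2). Mir487b, the leading gene of the cluster, made up 34.8% and 17.8% there, with 39113 and 15874 CPM, before Mir382 at 11680 ± 435 CPM and Mir411 at 10914 ± 1889 CPM. Mir487b and Mir411 share a stretch of 20 nucleotides with another miRNA gene and are uncertain. The summed level in replicate 1 was 0.890 times that in replicate 2 for the Rtl1 antisense genes, 1.90 times for the Meg3 and Rian stretches and 1.26 times for the cluster. The excess in the latter sums rests on Mir770 and Mir487b, with log2 ratios of replicate 1 over replicate 2 of 1.32 and 1.30. Without Mir770, the Meg3 and Rian sum was lower in replicate 1. The median log2 ratio over genes averaging at least 10 CPM was -0.01 for the Rtl1 antisense genes, 0.10 for the Meg3 and Rian stretches and -0.08 for the cluster. With 2 libraries of 1 group no test of these differences was run, for the reason given for single genes.

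**Figure D4:**
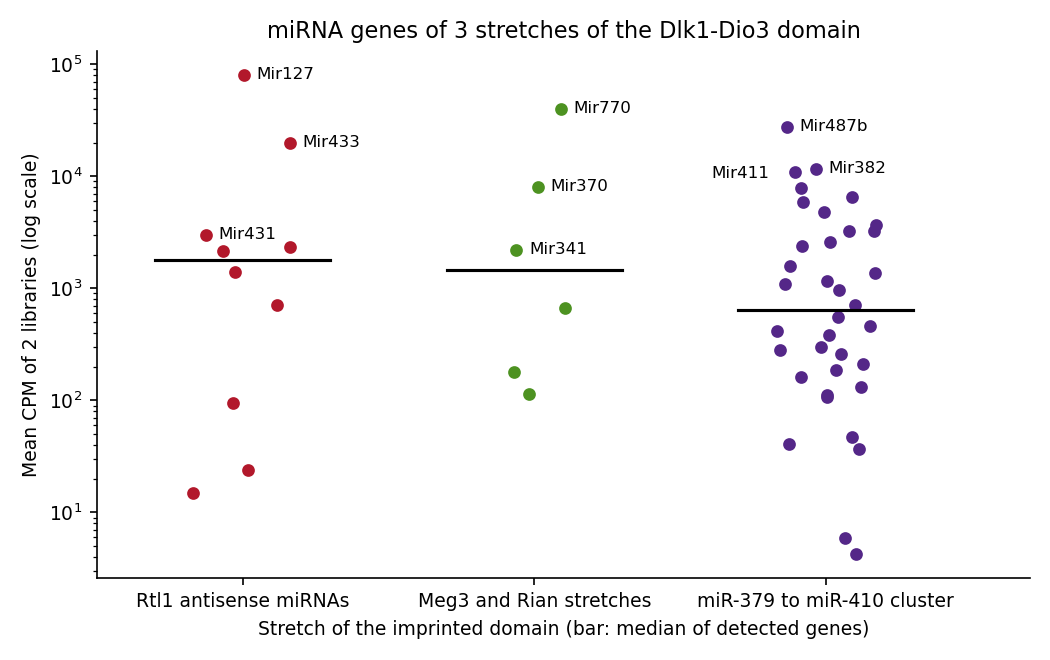
Mean CPM of the 2 libraries (log axis) for each detected miRNA gene of the Rtl1 antisense stretch (10 genes), the Meg3 and Rian stretches (6) and the miR-379 to miR-410 cluster (36), with bars at the medians of 1777, 1444 and 636 CPM. Points are spread sideways at random for legibility, and Mir127 is the highest gene of the domain.

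The libraries behind these values held 3793934 counts on miRNA genes of 13791106 reads in replicate 1, and 2554997 of 7239133 in replicate 2. Multimapping reads, given to no gene, were 26.3% and 37.5%, and unmapped reads 41.3% and 20.7%, in replicates 1 and 2; their part in the values was not tested. Of 15 listed neuron-enriched miRNA genes 11 were detected, with 5.06% of counts in replicate 1 and 3.55% in replicate 2. The oligodendrocyte list (3 of 3 detected) held 0.406% and 0.125%, the myeloid list (4 of 4) 0.174% and 0.164%, and endothelial Mir126a 1.13% and 0.783%. The erythroid list (2 of 2) held 0.00509% and 0.0179%, the muscle list (1 of 5, the others at 0) 0.00274% and 0.00356%, and liver Mir122 0.00206% and 0.00297%. The summed neuron, oligodendrocyte, myeloid and endothelial shares were thus larger in replicate 1, and the erythroid, muscle and liver shares in replicate 2. In the muscle and liver lists no tested gene passed the exact binomial test. The myeloid list was Mir142, Mir223, Mir146 and Mir150. By the exact binomial test 2 of its genes had more in replicate 1 and 1 had more in replicate 2. Without Mir150, its highest gene, that list held 0.0762% in replicate 1 and 0.0594% in replicate 2. The neuron list did not move as one either: of 12 members tested by the exact binomial test, 4 had more in replicate 1 and 5 had more in replicate 2. Its sum was led by Mir149, with 76789 and 36339 counts, and Mir132, with 65506 and 15195. Without Mir149 the list held 3.03% in replicate 1 and 2.13% in replicate 2. With Mir132 left out as well, the rest of the list held the larger share in replicate 2. The muscle genes at 0 were Mir1a-1, Mir1a-2, Mir133a-1 and Mir133a-2, which are numbered copies. A read that maps to several copies is given to no gene, so a low or 0 count of such genes need not mean absence. The same limit applies to copies in the neuron list, such as Mir124a-1, with 12 counts in replicate 1 and 4 in replicate 2. The part of these lists in the differences between libraries was not tested.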

How the data were processed

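Per the text files deposited with the tables, reads were assigned on mm10 with the GENCODE M21 annotation. The deposited tables hold raw counts per miRNA gene, not normalized, in 3 columns (strand ignored, strand of the gene, opposite strand). They have no header, and the strands were read from the totals and from genes that overlap. The 4 rows of reads given to no gene stayed out of library totals. Alignment, counting tool and read filters were not given in the sources used here.

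CPM are counts on the gene's strand per 1000000 assigned counts, and 1 count was worth 0.264 CPM in replicate 1 and 0.391 CPM in replicate 2. Log2 ratios used a pseudocount of 0.5 CPM. All 2202 identifiers matched GENCODE M21. The exact binomial test was adjusted by Benjamini-Hochberg over the 507 genes with at least 10 counts in sum, with a threshold of 0.05. Differences between the libraries exceeded sampling noise (chi-square 264253 on 506 degrees of freedom) and were counted as 2 samples. edgeR 4.0.16 gave TMM factors and a common dispersion (coefficient of variation 0.378), since no residual degrees of freedom are left for a quasi-likelihood fit once each library is its own arm, and DESeq2 1.42.0 gave size factors. Hairpins (GENCODE) were folded with ViennaRNA 2.7.2 and searched on both strands for runs of 20 nucleotides found also in miRNA genes that do not overlap them. Mature arms came from RefSeq (GRCm38.p6). Other steps used R 4.3.3, Python 3.11.15, pandas 2.3.3 and scipy 1.17.1.

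All 10 genes are named, and the 3 highest of each neighbouring stretch. The rule for the 10 genes uses name and position, but it, the lists and the tests were chosen with earlier results of these data known. With 2 libraries of 1 group no pattern across samples was compared.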

Additional observations from a re-analysis of the deposited data

How the results depend on the processing

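The summed share of the 10 genes, 11.0% of the counts on miRNA genes, was 3.49% with all reads as the denominator and 42.5% with the miRNA genes of the imprinted domain as the denominator, by construction of those denominators. It moved by less than 1 SD in the column that ignores strand and without the 2 genes that share a stretch, and was 10.4% to 11.7% with either library left out. Mir127 made up 73.2% of the stretch, 73.0% to 73.4% with either library left out, and 74.7% in the column that ignores strand, where Mir337 and Mir136 lose their reads. The count of detected genes stayed at 10 with a minimum of 1 or 10 CPM or with 1 library, and was 8 in the column that ignores strand. The number of genes that differed between libraries, 8, was 7 with no minimum count, 9 with TMM-scaled totals, 8 with DESeq2 size factors and 6 in the column that ignores strand. It was 0 in edgeR's exact test with its common dispersion, which adds the spread between the libraries to counting error. The median log2 ratio lay between -0.03 and 0.15 under all 6 alternatives, and directions of single genes held under TMM and DESeq2 scaling. With the sum of the 10 genes as the total, Mir127 and Mir3070b turned from lower to higher in replicate 1. A comparison of the libraries could not be made with 1 library left out. Depth limits the statements on Mir3070a, Mir3070b and Mir136, and for the first 2 multimapping reads do too.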
